A study of Mus musculus with 21 samples.

Results

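Collagens are the most abundant structural proteins of the extracellular matrix, and the genes described here are all those of the deposited table whose symbol has the form of a collagen chain, Col followed by a type number, the letter a and a chain number. The rule found 44 genes among the 24623 genes of the table. Of these, 27 reached the level needed for testing, at least 1 TPM in at least 3 libraries, and 17 did not. TPM is the relative abundance of a transcript, corrected for its length and scaled to a fixed total, so levels of different genes can be compared on it within a library.

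The series compared EPHA2-WT with EPHA2-KO cells in a pair of mouse pancreatic tumour cell clones, 6694c2 and 6419c5. EPHA2 is a receptor tyrosine kinase that binds ephrins. Untreated cells were grown as subcutaneous tumours in C57BL/6 mice, and tumour cells were sorted from them 3 weeks after implantation. RNA sequencing gave 21 libraries, 4 for each of the lines 6694c2 WT, 6694c2 KOA and 6694c2 KOB and 3 for each of the lines 6419c5 WT, 6419c5 KOA and 6419c5 KOB. WT stands for the clone with no further name in its label, and both KO lines of a clone are labelled EPHA2-KO. The letters A and B come from the table, are not tied to the numbers 1 and 2 of the labels, and have no relation between clones. The way EPHA2 was disrupted, whether a KO line is a single clone, the marker used for sorting, and whether separate animals gave the libraries are not given in the sources used here, so p values measure only the spread between these libraries. Each clone had 1 WT line, and differences between lines that do not come from the knockout cannot be told apart from it.

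Collagen chains are made in the endoplasmic reticulum, where they are hydroxylated, wound into a triple helix with the help of dedicated chaperones, secreted and crosslinked. Fibrillar collagens form the tensile fibres of connective tissue, of which types I and III are the bulk and type V starts the fibre; the type IV network and types XV and XVIII belong to basement membranes; and types VII and XVII anchor epithelia to the matrix below. In pancreatic cancer most fibrillar collagen is known to be laid down by fibroblasts, while tumour cells can make collagen as well. In bulk libraries such as these, fewer cells of a type and less RNA per cell cannot be told apart.

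Epha2 fell in 6694c2, from 245 ± 5.11 TPM in WT to 115 ± 18.3 in KOA and 97.8 ± 11.4 (SD, n = 4 each) in KOB, a KO effect of −1.21 ± 0.09 (log2, SE, adjusted p = 1.5e-08). In 6419c5 Epha2 stood at 176 ± 13.5, 151 ± 6.05 and 197 ± 25.7 TPM in WT, KOA and KOB (SD, n = 3 each), with a KO effect of −0.03 ± 0.10 (adjusted p = 0.819), so the libraries labelled KO in that clone were not called lower in Epha2 transcript. Of 10 listed markers of pancreatic tumour epithelium, 4 were taken as defining, Krt19 among them, and 0 of these 4 was at 0 TPM in any library. A mean of at least 1 TPM was reached by 8 of the 10 in 6694c2 KOA, 9 in 6694c2 KOB and 10 in each other line. The 10 genes added up to between 6482 and 8986 TPM in the libraries of 6694c2. In 6419c5 they added up to 6874 ± 997 TPM for WT, 15051 ± 858 for KOA and 14637 ± 1989.7 for KOB (SD, n = 3 each), with the KO libraries above all those of WT. A pair of libraries stood apart. KOA library 2 of 6694c2 was low in fibrillar collagens, and WT library 3 of 6419c5 was high in several of them and in the fibroblast gene Dcn, and calls against WT and for the KO effects that changed without either are given beside the results.

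The 44 genes lie on 15 mouse chromosomes (GRCm38, mm10), and several are neighbours. Col4a1 (chromosome 8, 11198423 to 11312826, minus strand) and Col4a2 (chromosome 8, 11312805 to 11449287, plus strand) start head to head and share 22 bases at their starts. Col3a1 and Col5a2 end tail to tail on chromosome 1, 24614 bases apart. Col4a6 and Col4a5 start head to head on chromosome X, 1308 bases apart. The stretch shared by the type IV genes and the 250 bases upstream of the RefSeq start of 4 collagens are printed 5′ to 3′ on the strand of the gene or, for the shared stretch, on the plus strand. Col5a1 and Col5a3 are shown because both fell in 6694c2 KOB and in 6419c5 KOA, and Col3a1 because its neighbour Col5a2 rose in 6419c5 KOB while it was not called there. Col27a1 is shown as 1 of the 8 tested collagens not called in 6694c2 KOB, where 19 fell. In the promoter windows capitals mark the CCAAT box, the TATAAA box and the GGGCGG box, read on either strand, so that the reverse complement counts as well, and none of these promoter windows touches an annotated exon. The sequences are from RefSeq, build GRCm38.p6.
Col4a1 and Col4a2, chr8:11312805-11312826, plus strand: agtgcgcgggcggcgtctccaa
Col3a1, chr1:45311288-45311537, plus strand: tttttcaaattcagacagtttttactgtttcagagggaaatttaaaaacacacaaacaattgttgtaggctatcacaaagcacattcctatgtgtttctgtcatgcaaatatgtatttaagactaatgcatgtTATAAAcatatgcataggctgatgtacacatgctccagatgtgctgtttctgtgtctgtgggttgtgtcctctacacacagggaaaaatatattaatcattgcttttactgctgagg
Col5a1, chr2:27886175-27886424, plus strand: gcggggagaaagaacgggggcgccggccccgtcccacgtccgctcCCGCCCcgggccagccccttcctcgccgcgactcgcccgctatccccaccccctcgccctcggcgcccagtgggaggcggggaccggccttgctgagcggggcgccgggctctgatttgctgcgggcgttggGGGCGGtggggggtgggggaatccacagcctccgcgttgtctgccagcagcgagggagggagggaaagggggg
Col5a3, chr9:20815068-20815317, minus strand: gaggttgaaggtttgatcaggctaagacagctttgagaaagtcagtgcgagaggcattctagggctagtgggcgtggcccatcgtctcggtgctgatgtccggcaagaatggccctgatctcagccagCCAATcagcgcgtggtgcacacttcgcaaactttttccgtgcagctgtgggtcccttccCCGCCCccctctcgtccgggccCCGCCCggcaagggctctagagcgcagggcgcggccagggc
Col27a1, chr4:63215162-63215411, plus strand: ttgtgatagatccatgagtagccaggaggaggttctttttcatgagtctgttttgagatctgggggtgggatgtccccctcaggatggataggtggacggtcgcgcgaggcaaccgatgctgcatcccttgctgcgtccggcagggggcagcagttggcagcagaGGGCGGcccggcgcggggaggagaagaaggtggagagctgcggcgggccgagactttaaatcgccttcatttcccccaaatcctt
Of the 44 collagens, 35 had a window in the RefSeq table, with 38 windows in all. CCAAT was found in 13 of the 38 collagen windows and in 33.8% of all 32851 windows of 250 bases, TATAAA in 5 of 38 and 12.4%, and GGGCGG in 22 of 38 and 32.7%. A match is a string of letters and was not tested as a binding site.

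The summed collagen RNA was lower in 6694c2 KOB than in the other lines of that clone, and the KO lines of 6419c5 stood on either side of their WT in the mean. In 6694c2 all collagens together added up to 1537 ± 35.4 TPM for WT, 1958 ± 531 for KOA and 726 ± 62.4 for KOB (SD, n = 4 each). In 6419c5 they added up to 3061 ± 769 TPM for WT, 2062 ± 234 for KOA and 3768 ± 643 for KOB (SD, n = 3 each). Basement membrane collagens made up the largest share in 6694c2, 49.0% ± 2.15 of the summed TPM in WT, and fibrillar collagens the largest share in 6419c5, 49.6% ± 0.791 in WT. Col18a1, which encodes the parent chain of endostatin, was the most abundant collagen in all 3 lines of 6694c2 and in 6419c5 KOA. By its mean of 601 TPM Col3a1 was the most abundant in 6419c5 WT, but this rested on library 3, where it reached 911 TPM. In the other WT libraries Col1a1, with 431 and 515 TPM, was above Col3a1, with 418 and 473, and in library 1 Col18a1, with 438 TPM, was above both. Col1a1 was the most abundant in 6419c5 KOB with a mean of 1069 TPM.

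**Figure D1:**
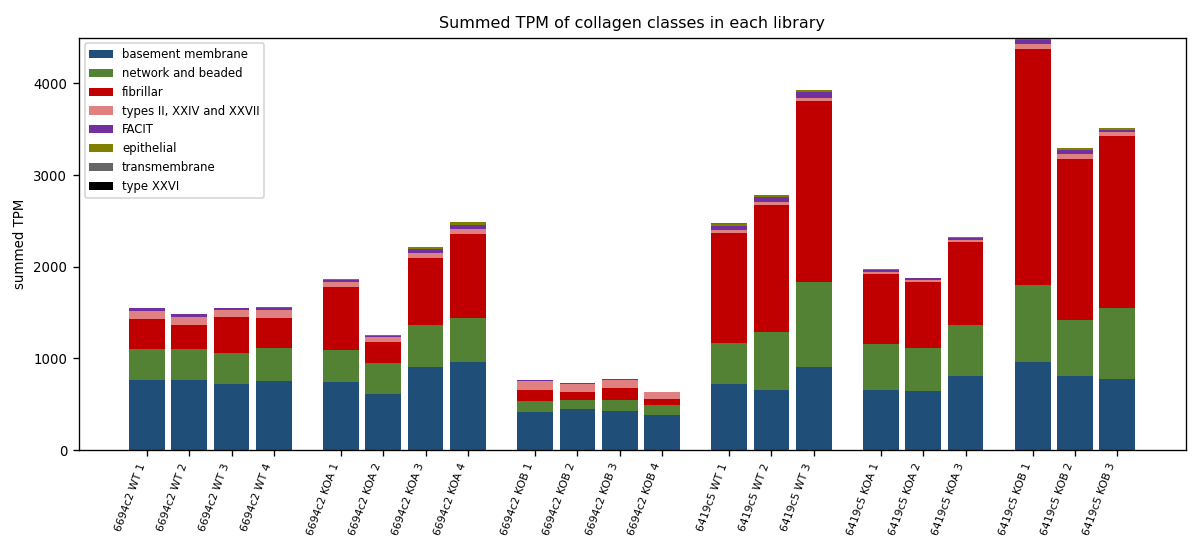
Summed TPM of the collagen classes in each library, stacked, with libraries on the x axis and TPM on the y axis. The 4 libraries of 6694c2 KOB add up to between 638 and 778 TPM, below every other library, and the fibrillar class accounts for most of the difference between the lines of 6419c5, from 794 TPM in KOA to 2071 in KOB on average.

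Changes were tested with limma on log2(TPM + 1) over all 14337 genes that passed the filter, with calls made where the adjusted p was below 0.05. Log2 changes on that scale understate the change of genes near 1 TPM. In 6694c2 KOB, 19 of the 27 tested collagens fell and 0 rose, where 19.4% of all genes tested were lower and 29.2% higher. The median change of the collagens was −1.18 there, against 0.07 for all genes. In 6694c2 KOA, 3 rose and 3 fell (15.2% and 7.56% of all genes), with a median of 0.18 against 0.08. In 6419c5 KOA, 1 rose and 8 fell (19.1% and 12.7% of all genes, 31.8% together), with a median of −0.34 against 0.04. In 6419c5 KOB, 7 rose and 3 fell (28.5% and 14.7% of all genes), with a median of −0.04 against 0.10. The count in 6694c2 KOA rested on library 2: without it 13 collagens were called, 10 higher and 3 lower. As all lines share an estimate of the spread, leaving that library out also added calls in 6419c5 with no change in the fold: Col15a1 (−0.52, adjusted p = 0.0392), Col27a1 (−0.32, adjusted p = 0.0454), Col4a2 (−0.27, adjusted p = 0.0369) and Col7a1 (−1.01, adjusted p = 0.0197) in KOA and Col3a1 (−0.82, adjusted p = 0.0142) in KOB. The share of all genes called with a library left out is not given, here and below. Whether such counts are particular to collagens was not tested. Since each clone has 1 set of WT libraries for both KO lines, the lists of calls of these lines are not independent.

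The levels of fibroblast and pericyte markers differed between the lines, so the tests were also run with the mean log2(TPM + 1) of 20 such markers as a covariate, called the marker score here. With it 0 collagens were higher and 7 lower in 6694c2 KOA, and 1 was higher and 11 lower in 6694c2 KOB. In 6419c5 KOA the calls turned from 1 higher and 8 lower to 8 higher and 0 lower, and in 6419c5 KOB 13 were higher and 3 lower. Calls of KO lines against WT that ended or changed direction with the marker score are given beside each result. The model holds a mean for each line, so the slope on the score rests on the spread within lines. The sum of 5 of these markers was lowest of its line in KOA library 2 of 6694c2 (5.1 TPM) and highest in WT library 3 of 6419c5 (285 TPM). The share of all genes called with the score is not given, so whether these counts, here and below, are particular to collagens was not tested.

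**Figure D2:**
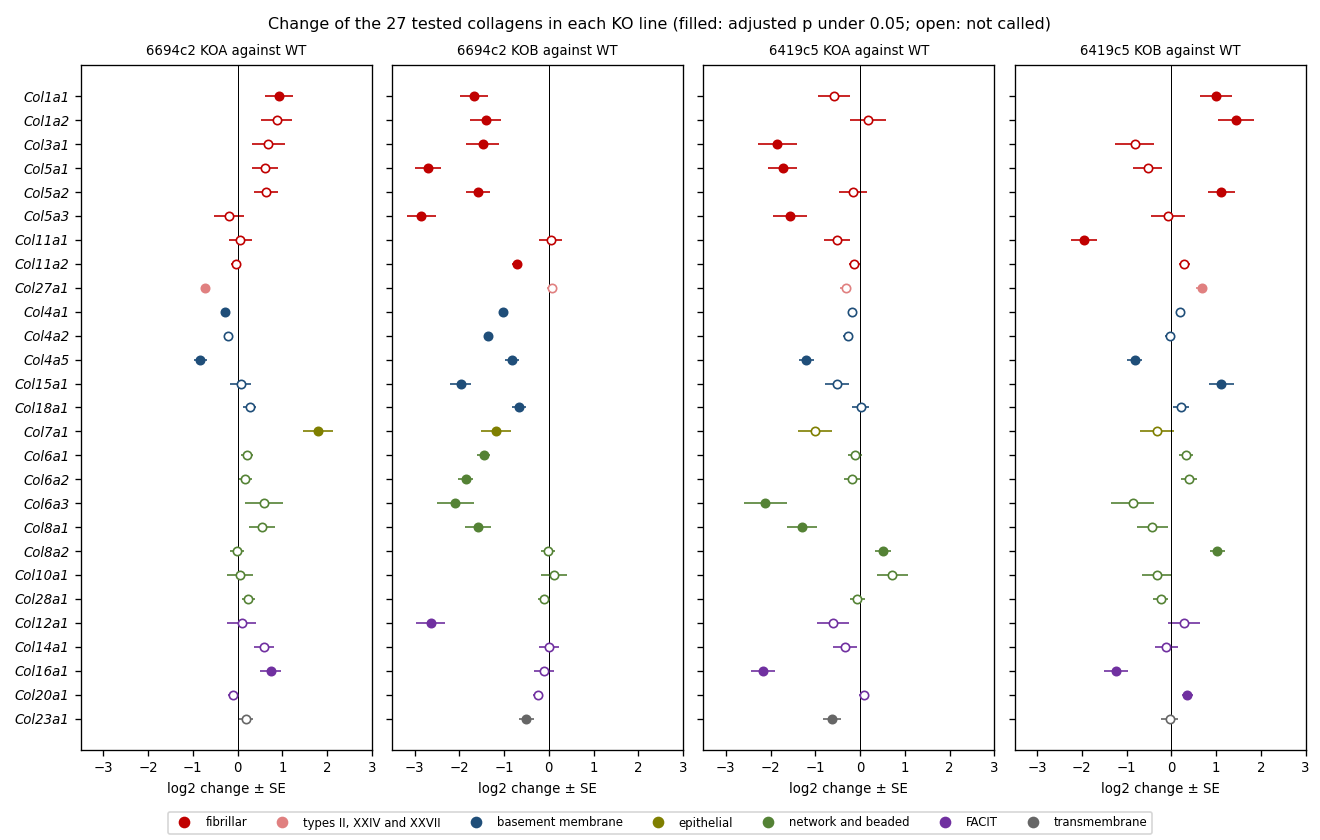
Log2 change against WT (x axis, points, with SE as bars) of each of the 27 tested collagens (y axis) in the 4 KO lines, coloured by class and filled where the adjusted p was under 0.05. In 6694c2 KOB 19 points lie filled on the left. In 6419c5 KOB 7 lie filled on the right, Col1a1, Col1a2, Col5a2, Col15a1, Col8a2, Col27a1 and Col20a1, and 3 on the left, Col11a1, Col16a1 and Col4a5.

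The fibrillar class of types I, III, V and XI had 8 members, all tested. In 6694c2 KOB, 7 of the 8 fell and none rose (19.4% and 29.2% of all genes tested), with changes from −2.85 to 0.04. Col1a1, the major chain of type I collagen (chromosome 11, 94936224 to 94953042), measured 143, 106, 164 and 139 TPM in the WT libraries and 55, 38.5, 52.5 and 27.6 in those of KOB. Every KOB library lay below every WT library, and the change was −1.68 ± 0.31 (adjusted p = 0.000213). Its partner chain Col1a2 (chromosome 6, 4504814 to 4541544) went from 62.8, 51.5, 83.4 and 60.5 TPM to 31.5, 19.8, 29.2 and 16.2, a change of −1.41 ± 0.35 (adjusted p = 0.00239). Col3a1, the chain of type III collagen of skin and vessels (chromosome 1, 45311538 to 45349706), went from 62.2, 57.1, 90.3 and 69.7 TPM to 27.6, 19.9, 30.4 and 19.9, a change of −1.48 ± 0.37 (adjusted p = 0.0029). The libraries of these genes did not overlap either. None of these 3 changes was called with the marker score, at −0.59 for Col1a1 (adjusted p = 0.0869), −0.52 for Col1a2 (adjusted p = 0.325) and −0.11 for Col3a1 (adjusted p = 0.784).

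All 3 type V chains, which start type I fibres and limit their width, fell in 6694c2 KOB. Col5a1 (chromosome 2, 27886425 to 28039514) measured 30.4, 30, 33.4 and 32.6 TPM in WT and 3.84, 3.62, 5.3 and 3.46 in KOB, a change of −2.70 ± 0.29 (adjusted p = 4.67e-07). Col5a3 (chromosome 9, 20770050 to 20815067) measured 16.3, 17.5, 14.7 and 15 TPM in WT and 1.29, 0.945, 1.88 and 1.31 in KOB, a change of −2.85 ± 0.33 (adjusted p = 1.21e-06). Both changes were called with the marker score as well. Col5a2 (chromosome 1, 45374321 to 45503282) measured 10.6, 7.38, 10 and 8.49 TPM in WT and 2.97, 1.74, 2.94 and 1.91 in KOB, a change of −1.59 ± 0.27 (adjusted p = 8.55e-05). The ratio of Col5a1 to Col1a1 TPM was 0.234 ± 0.0354 in WT and 0.0975 ± 0.0228 in KOB (SD, n = 4 each), and its libraries did not overlap.

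Type XI chains, which belong mainly to cartilage, were scarce in 6694c2. Col11a2 (chromosome 17, 34039437 to 34066685) went from 1.58, 1.38, 1.11 and 1.19 TPM in WT to 0.362, 0.386, 0.417 and 0.461 in KOB, a change of −0.72 ± 0.10 (adjusted p = 1.66e-05). Col11a1 (chromosome 3, 114030540 to 114220718) was between 0.0188 and 0.196 TPM in all 12 libraries of the clone.

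In 6694c2 KOA the libraries spread widely, and with all of them Col1a1 was the single fibrillar collagen called. It measured 331, 107, 315 and 418 TPM against 143, 106, 164 and 139 in WT, a change of 0.93 ± 0.31 (adjusted p = 0.039). Library 2 lay within the WT range and the other 3 above it. The call was lost without KOA library 1, 3 or 4 and without any one of the WT libraries, with changes from 0.71 to 1.02 and adjusted p from 0.05 to 0.139, and the change was −0.13 (adjusted p = 0.792) with the marker score. Col1a2 measured 144, 45.3, 152 and 187 TPM (0.87 ± 0.35, adjusted p = 0.0789). Col3a1 measured 136, 35.9, 159.9 and 189 TPM (0.68 ± 0.37, adjusted p = 0.208), and Col5a1 39.9, 25, 73.4 and 78.3 (0.62 ± 0.29, adjusted p = 0.137). For each of these genes library 2 was the lowest of the line and lay below all WT libraries. Col5a2 (18.9, 6.56, 16.8 and 20.9 TPM), Col5a3 (16.8, 5.06, 18 and 22) and Col11a2 (1.15, 1.45, 1.2 and 1.22) were not called, and library 2 was the lowest for the type V chains but the highest for Col11a2. Without library 2, 5 fibrillar collagens were called higher: Col1a1 (1.36, adjusted p = 0.000237), Col1a2 (1.32, adjusted p = 0.00113), Col3a1 (1.21, adjusted p = 0.00132), Col5a1 (0.93, adjusted p = 0.0108) and Col5a2 (0.98, adjusted p = 0.0019).

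In 6419c5 KOB, Col1a1, Col1a2 and Col5a2 rose, while Col11a1 fell and Col3a1, Col5a1, Col5a3 and Col11a2 were not called. Col1a1 measured 431, 515 and 669 TPM in WT, 324, 327 and 411 for KOA and 1317, 924 and 966 for KOB. The KOB libraries lay above and the KOA libraries below all those of WT, with changes of 0.99 ± 0.36 for KOB (adjusted p = 0.0339) and −0.59 ± 0.36 for KOA (adjusted p = 0.239). The change in KOA turned to 1.84 with the marker score (adjusted p = 0.0113). The call in KOB was lost without KOB library 1 (0.83, adjusted p = 0.116) or 3 (1.06, adjusted p = 0.0555) and without WT library 1 (0.85, adjusted p = 0.109) or 2 (0.97, adjusted p = 0.0745). Over all alternatives its change ran from 0.83 to 1.88 and its adjusted p from 4.1e-05 to 0.116.

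Col1a2 measured 227, 251 and 120.2 TPM in 6419c5 WT, 213, 185 and 251 in KOA and 668, 444 and 463 in KOB. The change in KOB was 1.44 ± 0.40 (adjusted p = 0.0073), with KOB above all other libraries of the clone, and that in KOA was 0.18 ± 0.40 (adjusted p = 0.783). Col5a2 was also highest in KOB, with 21.8, 24.7 and 13.6 TPM in WT, 19.2, 14.9 and 18.5 for KOA and 58.1, 36.5 and 38.6 for KOB, a change of 1.12 ± 0.31 in KOB (adjusted p = 0.00755). WT library 3 was the lowest WT library for both genes although it was the highest for Col1a1. Without that library and KOB library 4 of 6694c2, both high in the small RNA gene Mir6236, the change of Col5a2 was 0.88 (adjusted p = 0.052).

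Col3a1, Col5a1 and Col5a3 fell in 6419c5 KOA and were not called in KOB. Col3a1 measured 418, 473 and 911 TPM in WT, 166, 142 and 163 for KOA and 408, 257 and 313 for KOB, with changes of −1.85 ± 0.43 (adjusted p = 0.00288) and −0.82 ± 0.43 (adjusted p = 0.135). Col5a1 measured 88.5, 99.6 and 208 TPM in WT, 32.3, 32.7 and 44.6 for KOA and 96, 82.8 and 75.9 for KOB, with a change of −1.73 ± 0.33 in KOA (adjusted p = 0.000614). For both genes WT library 3 was the highest, and the KOA libraries lay below all those of WT with or without it. Col5a3 measured 12.5, 17.6 and 31.4 TPM in WT, 6.12, 5.74 and 5.69 for KOA and 25.4, 11.5 and 20.2 for KOB, with a change of −1.56 ± 0.38 in KOA (adjusted p = 0.00433). All 3 changes in KOA turned their direction with the marker score, to 1.22 for Col3a1 (adjusted p = 0.086), 0.47 for Col5a1 (adjusted p = 0.491) and 1.33 for Col5a3 (adjusted p = 0.0129). Col5a3 was then called higher in KOB as well (0.98, adjusted p = 0.000876, against −0.07 ± 0.38, adjusted p = 0.895, without the score).

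Col11a1 was well above its level in 6694c2 in all 3 lines of 6419c5, and it fell in KOB. It measured 6.22, 7.27 and 20.3 TPM in WT, 6.46, 8.61 and 5.21 for KOA and 2.06, 2.49 and 1.04 for KOB, with a change of −1.96 ± 0.29 in KOB (adjusted p = 3.16e-05) and −0.51 ± 0.29 in KOA (adjusted p = 0.199). Every KOB library lay below every WT and KOA library. Col11a2 measured 0.221, 0.421 and 0.428 TPM in WT, 0.176, 0.193 and 0.352 for KOA and 0.692, 0.807 and 0.489 for KOB and was called in neither line.

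**Figure D3:**
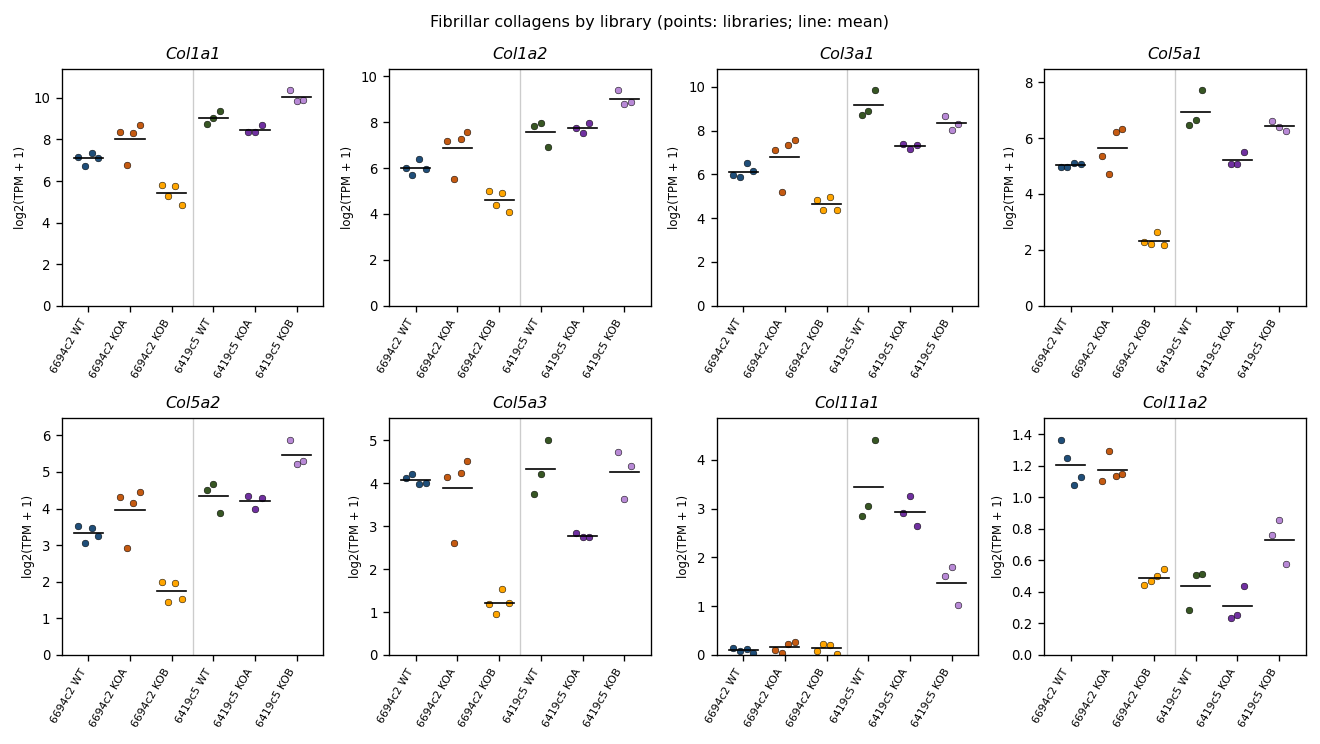
Log2(TPM + 1) of the 8 fibrillar collagens (y axis) in each library, grouped by line (x axis), with a bar at the mean of each line. In 6694c2 the KOB points are lowest for all but Col11a1, with Col5a1 between 3.46 and 5.3 TPM, and in 6419c5 the KOB points are highest for Col1a1, Col1a2 and Col5a2 and lowest for Col11a1.

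Ratios between chains describe the make-up apart from the total amount. The Col3a1 to Col1a1 ratio was 1.08 ± 0.243 in 6419c5 WT, 0.447 ± 0.0583 in KOA and 0.304 ± 0.0234 (SD, n = 3 each) in KOB, so type III made up less relative to type I in both KO lines, with no overlap. In 6694c2 the same ratio was 0.507 ± 0.0525, 0.427 ± 0.0725 and 0.579 ± 0.0999 (SD, n = 4 each), with overlap between the lines. The Col1a1 to Col1a2 ratio, the pair that forms type I collagen, stayed between 1.52 and 2.36 in 20 of the 21 libraries and was 5.56 in WT library 3 of 6419c5. In that library the Col5a1 to Col5a2 ratio was also apart, at 15.3 against 4.06 and 4.03 in the other WT libraries. These ratios were described and not tested.

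Of the 8 basement membrane collagens 5 were tested. All 5 fell in 6694c2 KOB (changes from −1.97 to −0.67), against 2 in KOA, 1 in 6419c5 KOA and, in 6419c5 KOB, 1 lower and 1 higher. Of all genes tested 19.4%, 7.56%, 12.7% and 14.7% were lower in these lines, in that order, and 28.5% were higher in 6419c5 KOB. Col4a1, a chain of the common type IV network, measured 195, 194, 173 and 182 TPM in 6694c2 WT, 155, 138, 154 and 164 in KOA and 95.7, 88.1, 94.8 and 84.6 in KOB. The lines did not overlap, and the changes were −0.28 ± 0.08 (adjusted p = 0.0148) in KOA and −1.03 ± 0.08 for KOB (adjusted p = 8.06e-09). Its partner Col4a2 measured 104, 101, 89.5 and 95.8 TPM in WT, 82.6, 69.4, 88.4 and 95.2 for KOA and 37.2, 38, 38.3 and 35.7 for KOB, with changes of −0.22 ± 0.09 (adjusted p = 0.1) and −1.36 ± 0.09 (adjusted p = 2.77e-09). The Col4a1 to Col4a2 ratio was 1.9 ± 0.0251 in WT and 2.44 ± 0.113 in KOB (SD, n = 4 each), and its libraries did not overlap.

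In 6419c5 neither gene was called. Col4a1 measured 159, 173 and 192 TPM in WT, 149.8, 144 and 173 for KOA and 219.5, 196 and 183 for KOB. Col4a2 measured 101, 99.9 and 122 TPM in WT, 82.5, 83.8 and 101 for KOA and 115, 96.5 and 101 for KOB. The changes of both in KOA and KOB ran from −0.27 to 0.19. Without WT library 3 Col4a1 was called in KOB (0.26, adjusted p = 0.043).

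Col4a5, a chain of the type IV network of kidney and smooth muscle (chromosome X, 141475385 to 141689234), was the one collagen called lower in all 4 KO lines. It measured 11.3, 13.8, 12 and 10.8 TPM in 6694c2 WT, 7.32, 6.4, 5.38 and 6.17 in KOA and 6.76, 6.72, 6.33 and 5.44 in KOB. The 6419c5 libraries had 10.1, 12.7 and 17.7 TPM in WT, 4.83, 4.57 and 6.17 for KOA and 8.22, 7.41 and 5.62 for KOB. Every KO library lay below every WT library of its clone. The changes were −0.83 ± 0.15 (adjusted p = 0.000543) and −0.82 ± 0.15 (adjusted p = 0.000128) in 6694c2 and −1.20 ± 0.17 (adjusted p = 2.81e-05) and −0.82 ± 0.17 (adjusted p = 0.000731) in 6419c5. The calls held without any one library, but that in 6419c5 KOA did not hold with the marker score (−0.97, adjusted p = 0.0673), and the difference between the clones' KO effects, 0.19 ± 0.19, was not called (adjusted p = 0.501). Col4a6, whose start lies next to that of Col4a5, was not tested; it measured 0.304, 0.336 and 0.476 TPM in 6419c5 WT and at most 0.064 TPM in every other library.

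Types XV and XVIII, which carry glycosaminoglycan chains, differed in the size of their change. Col15a1 (chromosome 4, 47208161 to 47313167) measured 9.34, 7.44, 8.19 and 10.9 TPM in 6694c2 WT, 10.1, 4.7, 11.9 and 13.3 in KOA and 1.53, 1.33, 1.82 and 1.4 in KOB, a change of −1.97 ± 0.23 in KOB (adjusted p = 1.25e-06). Its 6419c5 values were 7.86, 8.21 and 7.66 TPM in WT, 5.47, 4.93 and 5.2 for KOA and 25.3, 12 and 20.2 for KOB, a change of 1.12 ± 0.27 in KOB (adjusted p = 0.00244). It thus fell in one KOB line and rose in the other, without overlap with WT in either. With the marker score it was also called in both KOA lines, at −0.69 in 6694c2 (adjusted p = 0.0243) and 1.22 in 6419c5 (adjusted p = 0.0213), where the changes without it were 0.07 and −0.52. Col18a1 (chromosome 10, 77052178 to 77166548) measured 449.9, 448, 438 and 454 TPM in 6694c2 WT, 487, 397, 650.3 and 681 in KOA and 275, 313, 286 and 255 in KOB, a change of −0.67 ± 0.15 in KOB (adjusted p = 0.00135) that was not called with the marker score (−0.27, adjusted p = 0.236). Without KOA library 2 it was called in KOA (0.42, adjusted p = 0.0324). For 6419c5 the values were 438, 359.7 and 566 TPM in WT, 415, 412 and 528 for KOA and 589, 498 and 470.3 for KOB, and the lines overlapped.

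The epithelial collagens were represented by type VII alone. Col7a1, the chain of the anchoring fibrils under stratified epithelia (chromosome 9, 108953586 to 108984875), measured 5.17, 2.3, 2.83 and 4.22 TPM in 6694c2 WT, 10.6, 6.7, 25.3 and 24.8 in KOA and 1.18, 0.822, 1.34 and 0.651 in KOB. All KOA libraries lay above and all KOB libraries below WT, with changes of 1.80 ± 0.33 (adjusted p = 0.000774) and −1.18 ± 0.33 (adjusted p = 0.00639). Neither was called with the marker score, at 1.06 (adjusted p = 0.0849) and −0.43 (adjusted p = 0.438). KOA library 2 was again the lowest of its line, but here it still lay above WT. In 6419c5 Col7a1 measured 28.4, 15.2 and 22.7 TPM in WT, 8.33, 8.73 and 14.1 for KOA and 19.9, 19.8 and 12.7 for KOB, and neither change was called (−1.01 ± 0.38, adjusted p = 0.0519, and −0.31 ± 0.38, adjusted p = 0.545). Col17a1, the transmembrane collagen of hemidesmosomes (chromosome 19, 47646344 to 47692094), was not tested. It measured 0.0573, 0.0922, 0.119 and 0.126 TPM in 6694c2 WT, 0.0697, 0.139, 0.151 and 0.159 in KOA and 0.0294, 0.0726, 0.067 and 0.0271 in KOB. Its levels in 6419c5 were 0.0867, 0.251 and 0.465 TPM in WT, 0.135, 0.312 and 0.174 for KOA and 0.145, 0.35 and 0.102 for KOB. It was thus under 1 TPM throughout.

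**Figure D4:**
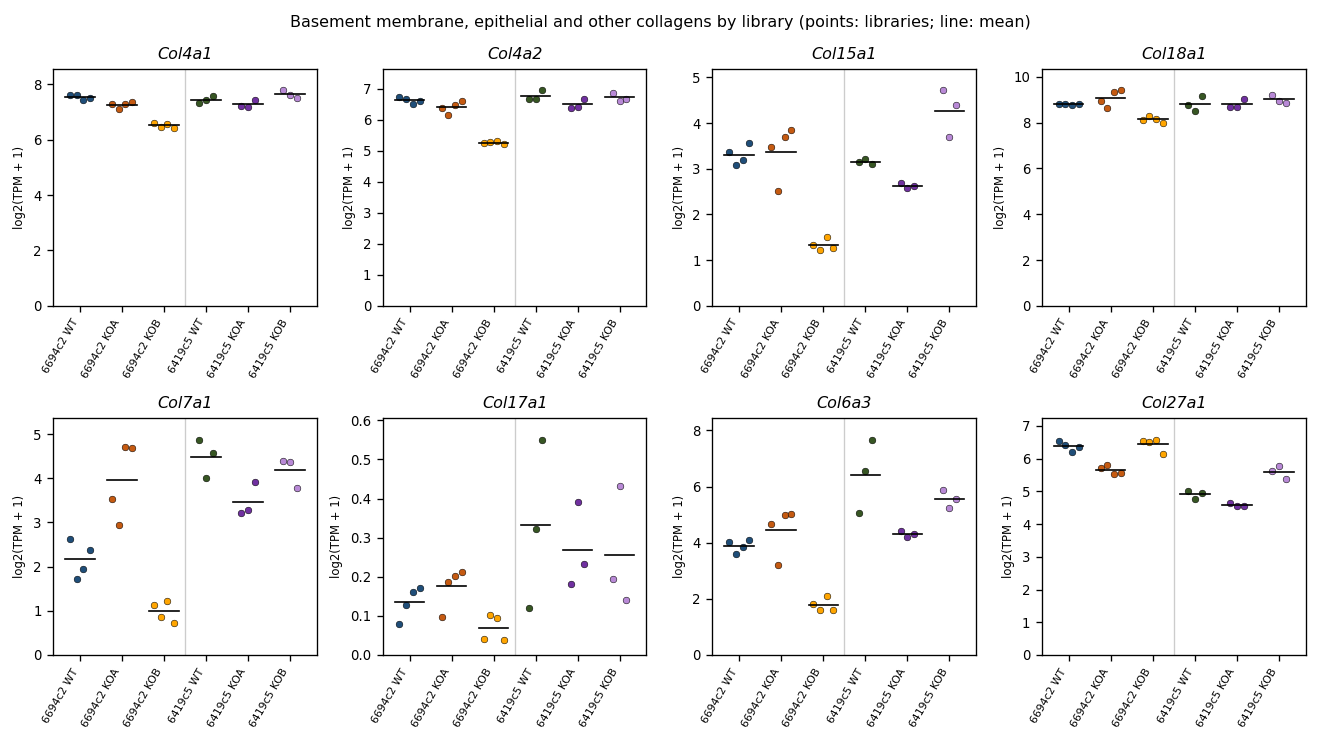
Log2(TPM + 1) of 4 basement membrane collagens, both epithelial collagens, Col6a3 and Col27a1 (y axis) in each library, grouped by line (x axis), with a bar at the mean of each line. Col4a1 and Col4a2 are lowest in 6694c2 KOB, Col7a1 splits the lines of 6694c2 with means of 3.63, 16.8 and 0.999 TPM, and Col27a1 is lowest in KOA of each clone.

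Among network and beaded collagens, type VI, the beaded filament around cells, fell in 6694c2 KOB in all 3 tested chains. Col6a1 (chromosome 10, 76708792 to 76726168) measured 211, 211, 214 and 227 TPM in WT, 215, 219, 278 and 296 for KOA and 82.7, 70.9, 83.7 and 75.2 for KOB, a change of −1.46 ± 0.14 in KOB (adjusted p = 9.95e-08). Col6a2 (chromosome 10, 76595762 to 76623630) measured 103, 106, 102 and 118 TPM in WT, 104, 102, 134 and 146 for KOA and 32.7, 22.6, 32.1 and 28.8 for KOB, a change of −1.86 ± 0.16 in KOB (adjusted p = 3.42e-08). Col6a3 (chromosome 1, 90765923 to 90843971) measured 15.1, 11, 13.3 and 15.9 TPM in WT, 24.1, 8.28, 30.8 and 31.4 for KOA and 2.52, 2.04, 3.32 and 2.05 for KOB, a change of −2.09 ± 0.42 in KOB (adjusted p = 0.000387) that was not called with the marker score (−0.54, adjusted p = 0.154). The KOB libraries did not overlap with WT for any of these chains, and none was called in KOA, where with the marker score Col6a3 was called lower (−0.93, adjusted p = 0.0374).

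In 6419c5 Col6a3 was called and its partner chains were not. Col6a1 measured 250.3, 329 and 432 TPM in WT, 303, 277 and 327 for KOA and 467, 350.4 and 431 for KOB, and Col6a2 measured 151, 189 and 259, then 165, 159 and 193, then 295, 207 and 275. Neither was called in KOA or KOB with all libraries. Without WT library 3 both were called higher in KOB, at 0.52 (adjusted p = 0.00956) and 0.59 (adjusted p = 0.0161), and with the marker score both were called higher in KOA, at 0.82 (adjusted p = 0.0224) and 0.87 (adjusted p = 0.0451), against −0.12 and −0.18 without it. Col6a3 measured 32.1, 92.3 and 203 TPM in WT, 20.1, 17.3 and 18.9 for KOA and 58.2, 37.1 and 45.8 for KOB, and it fell in KOA (−2.12 ± 0.48, adjusted p = 0.00231). That change turned to 1.34 with the marker score (adjusted p = 0.0745). The Col6a3 to Col6a1 ratio was 0.128, 0.28 and 0.47 in the WT libraries and between 0.0579 and 0.0663 in those of KOA.

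Col8a1, a chain of the short-chain network of vessel walls and cornea (chromosome 16, 57624258 to 57754737), fell in 6694c2 KOB and 6419c5 KOA. It measured 2.95, 4.46, 5.26 and 4.01 TPM in 6694c2 WT, 5.79, 2.88, 9.48 and 9.95 in KOA and 0.717, 0.87, 0.895 and 0.372 in KOB, a change of −1.58 ± 0.29 in KOB (adjusted p = 0.000191). The values in 6419c5 were 13.9, 20.3 and 30.5 TPM in WT, 7.09, 6.82 and 9.62 for KOA and 22.4, 13 and 11.7 for KOB, a change of −1.30 ± 0.34 in KOA (adjusted p = 0.00631). With the marker score these changes were −0.61 (adjusted p = 0.076) and 0.88 (adjusted p = 0.191), the second in the other direction. Without KOA library 2 Col8a1 was called higher in 6694c2 KOA (0.85, adjusted p = 0.0202). Its partner Col8a2 was under 0.2 TPM in all of 6694c2 and rose in both KO lines of 6419c5, from 0.259 ± 0.0586 TPM in WT to 0.802 ± 0.281 in KOA and 1.65 ± 0.871 (SD, n = 3 each) in KOB. The changes were 0.51 ± 0.17 (adjusted p = 0.0321) and 1.03 ± 0.17 (adjusted p = 0.000126), and the KOA call was lost without KOA library 3 (0.48, adjusted p = 0.0892) and without WT library 1 or 3 (0.49 and 0.48, adjusted p = 0.0748 and 0.0845) and with the marker score (0.77, adjusted p = 0.158). Col10a1, of hypertrophic cartilage, and Col28a1 were tested and called in no KO line against WT.

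FACIT collagens sit on the surface of fibrils, and 4 of their 9 genes were tested. Col16a1 (chromosome 4, 130047840 to 130099283) measured 4.84, 5.48, 5.41 and 4.34 TPM in 6694c2 WT, 8.14, 8.77, 9.25 and 9.94 in KOA and 4.54, 5.55, 5.23 and 3.27 in KOB. Its 6419c5 values were 16.4, 25.4 and 50.9 TPM in WT, 5.52, 4.7 and 6.25 for KOA and 14.7, 10.9 and 8.75 for KOB. It rose in 6694c2 KOA (0.74 ± 0.23, adjusted p = 0.0295) and fell in both KO lines of 6419c5 (−2.16 ± 0.27, adjusted p = 8.62e-06, and −1.24 ± 0.27, adjusted p = 0.00122), and none of these 3 lines overlapped with its WT. The rise in 6694c2 KOA was not called without KOA library 3 or 4 or WT library 1 or 4, with changes from 0.68 to 0.73 and adjusted p from 0.0609 to 0.078. It was not called there with the marker score (0.29, adjusted p = 0.568), nor was the fall in 6419c5 KOA (−1.13, adjusted p = 0.141).

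Col12a1, which decorates type I fibrils (chromosome 9, 79598991 to 79718831), fell in 6694c2 KOB, from 19.6, 19.9, 17.7 and 17.2 TPM in WT to 2.8, 1.86, 2.46 and 1.58, a change of −2.64 ± 0.32 (adjusted p = 1.7e-06). It measured 16, 8.19, 33.3 and 34.5 TPM in KOA and, in 6419c5, 20.6, 28.5 and 13.8 in WT, 13.5, 11 and 14.7 in KOA and 29.8, 24.9 and 20.1 in KOB, with no call. Col14a1 (chromosome 15, 55307750 to 55520803) measured 0.622, 0.642, 0.906 and 0.685 TPM in 6694c2 WT, 1.83, 0.418, 2.14 and 2.47 in KOA and 0.762, 0.808, 0.672 and 0.646 in KOB. For 6419c5 the values were 1.88, 3.35 and 3.55 TPM in WT, 1.75, 2.8 and 1.69 for KOA and 3.22, 2.16 and 2.41 for KOB, and it was called in no KO line against WT. Without KOA library 2 Col14a1 was called higher in 6694c2 KOA (0.87, adjusted p = 0.000883), and with the marker score it was called higher in 6419c5 KOA and KOB (1.37 and 0.51, adjusted p = 0.00784 and 0.0354), where the changes without it were −0.34 and −0.11. Col20a1 stayed at or under 1.43 TPM and was called in 6419c5 KOB (0.36 ± 0.12, adjusted p = 0.0249), a call lost without KOB library 2 (0.28, adjusted p = 0.117) and without WT library 1 or 3 (0.34 and 0.32, adjusted p = 0.0649 and 0.0778) and with the marker score (0.38, adjusted p = 0.0559).

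Col27a1, a fibril-forming chain known from cartilage (chromosome 4, 63214004 to 63334991), fell in one KO line and rose in another. It measured 91, 84.7, 72.7 and 80.9 TPM in 6694c2 WT, 51.8, 55, 45.1 and 46.5 in KOA and 92.2, 89.6, 94.8 and 69.3 in KOB. It fell in KOA (−0.72 ± 0.10, adjusted p = 7.86e-05) and was not called in KOB (0.06 ± 0.10, adjusted p = 0.639). It was 1 of 8 tested collagens not called in KOB, where 19 others fell. Its levels in 6419c5 were 31.1, 26.4 and 30 TPM in WT, 24, 22.7 and 22.7 for KOA and 48.6, 53.5 and 40.6 for KOB, and it rose in KOB (0.68 ± 0.12, adjusted p = 0.000191). KOA library 2 of 6694c2 was the highest of its line for Col27a1. The transmembrane collagen Col23a1 was under 1.4 TPM and was called lower in 6694c2 KOB (−0.50 ± 0.17, adjusted p = 0.0208) and 6419c5 KOA (−0.63 ± 0.20, adjusted p = 0.0205); the first call was lost without KOB library 2 (−0.47, adjusted p = 0.0545) and without WT library 1 (−0.40, adjusted p = 0.0788), and the second without KOA library 2 (−0.60, adjusted p = 0.0543). Both were lost with the marker score, at −0.18 (adjusted p = 0.544) and 0.08 (adjusted p = 0.908), the second with its direction turned.

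The 17 collagens that were not tested reached at most 1.33 TPM in any library, and 16 of them were listed at 0 in at least 1 library. They include Col2a1 of cartilage, Col17a1, Col4a3, Col4a4, Col4a6, all 3 chains of type IX and the type VI chains Col6a4, Col6a5 and Col6a6.

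Averaged over both KO lines of a clone, 11 of the 27 tested collagens fell and 0 rose in 6694c2 (13.5% and 23.9% of all genes tested, 37.4% together), with a median of −0.38 against 0.07 for all genes. In 6419c5, 7 fell and 1 rose (15.0% and 26.5% of all genes, 41.4% together), with a median of −0.15 against 0.08. Without WT library 3 of 6419c5 the count there was 3 lower and 1 higher, and the calls of Col3a1 (−0.99, adjusted p = 0.0716), Col5a1 (−0.75, adjusted p = 0.0541), Col6a3 (−0.86, adjusted p = 0.0968) and Col8a1 (−0.58, adjusted p = 0.172) were lost. That of Col8a1 was also lost without WT library 2 (−0.87, adjusted p = 0.0599) or KOB library 3 (−0.77, adjusted p = 0.0533). When limma treated the line as a random effect, no collagen was called in either clone, with lowest adjusted p of 0.233 in 6694c2 and 0.07 in 6419c5, and 3 and 4 had an unadjusted p under 0.05. In that fit 130 and 589 of all 14337 genes tested were called, so calls were few among all genes as well. With the marker score 1 collagen was higher and 14 lower in 6694c2, and 11 were higher and 1 lower in 6419c5, where Col3a1 (0.76), Col5a1 (0.37), Col6a3 (0.87) and Col8a1 (0.63) turned their direction. Without KOA library 2 of 6694c2 calls were added for Col14a1 in 6694c2 (0.44, adjusted p = 0.0146) and for Col1a2 (0.81, adjusted p = 0.01), Col5a2 (0.48, adjusted p = 0.0441) and Col5a3 (−0.81, adjusted p = 0.00793) in 6419c5. Col5a1 and Col4a5 were called in both clones, at −1.04 ± 0.25 (adjusted p = 0.00308) and −1.13 ± 0.29 (adjusted p = 0.00422) for Col5a1. For Col5a1 these means join unlike lines, with 0.62 in KOA, not called, and −2.70 in KOB of 6694c2. In 6419c5 its changes were −1.73 in KOA and −0.53 in KOB, the second not called. Col4a5 was called lower in each KO line. Of all tested collagens 3 rose and 3 fell in 6694c2 KOA, against 0 and 19 in KOB.

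The KO effect differed between the clones for 11 collagens, 2 higher and 9 lower in 6694c2 relative to 6419c5 (13.0% and 15.6% of all genes tested, 28.6% together), with a median of −0.40 against 0.00. None of them was called when the line was a random effect (lowest adjusted p = 0.392 with an estimated correlation). In that fit 1 collagen had an unadjusted p under 0.05, and 39 of all genes tested were called. In the fit with the marker score 1 collagen was higher and 16 were lower. The higher ones were Col16a1 (2.01 ± 0.31, adjusted p = 0.000105) and Col11a1 (1.28 ± 0.33, adjusted p = 0.00714), the latter not called with the marker score (0.69, adjusted p = 0.314). The lower ones included the pairs Col4a1 and Col4a2 (−0.66 ± 0.10 and −0.64 ± 0.13, adjusted p = 0.000125 and 0.00094) and Col6a1 and Col6a2 (−0.72 ± 0.18 and −0.95 ± 0.21, adjusted p = 0.00594 and 0.00251). Without KOA library 2 of 6694c2 the difference was called for 17 collagens, 5 higher and 12 lower, and the share of all genes called then is not given.

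KO lines of the same clone differed from each other in most collagens. In 6694c2, 20 of the 27 were higher in KOA than in KOB and 1, Col27a1, was lower (22.9% and 23.6% of all genes tested), with a median of 1.14 against 0.01. On the log2(TPM + 1) scale the largest differences were those of Col5a1 (3.32 ± 0.29, adjusted p = 5.63e-08), Col7a1 (2.98 ± 0.33, adjusted p = 9.95e-07) and Col12a1 (2.73 ± 0.32, adjusted p = 1.5e-06). In 6419c5 the order was the other way, with 2 collagens higher and 13 lower in KOA than in KOB (4.76% and 12.7% of all genes), and a median of −0.59 against −0.04. The higher ones were Col11a1 (1.45 ± 0.29, adjusted p = 0.00199) and Col10a1 (1.05 ± 0.34, adjusted p = 0.0406), the latter at 0.0551, 2.51 and 3.02 TPM in KOA. The count of 15 calls was 8 without KOA library 1, 6 without KOA library 2, 5 without KOB library 1 and 9 without KOB library 2. With the marker score 6 collagens were called between the KO lines of 6694c2 and 3 between those of 6419c5. Since the letters of the clones are unrelated, the opposite order says nothing about a shared KO line.

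Between the WT lines, 14 collagens were lower and 3 higher in 6694c2 than in 6419c5 (32.0% and 21.5% of all genes tested), with a median of −0.61 against −0.11. Col11a1 (−3.34 ± 0.27, adjusted p = 1.43e-08) and Col3a1 (−3.02 ± 0.40, adjusted p = 5.91e-06) differed most on the log2(TPM + 1) scale, and Col27a1 was the most different of those higher in 6694c2 (1.46 ± 0.11, adjusted p = 8.33e-09). None of the 5 tested basement membrane collagens was called, with differences from −0.13 to 0.15. The 5 defining fibroblast and pericyte markers Pdgfra, Pdgfrb, Dcn, Lum and Dpt added up to 16.5 ± 3.68 TPM in 6694c2 WT (SD, n = 4) and 178 ± 101 TPM in 6419c5 WT (SD, n = 3). With the marker score 9 collagens were called in place of 17, 8 higher and 1 lower in 6694c2. Col1a1 (0.33), Col1a2 (0.30), Col5a1 (0.16), Col5a2 (0.53), Col6a1 (0.28), Col6a2 (0.14), Col6a3 (0.72) and Col14a1 (0.44), all called lower without the score, were then on the other side of 0 and not called, and Col3a1 was not called either (−0.14, adjusted p = 0.867).

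Genes that make and crosslink collagen were followed in a list of 36, of which 33 were tested. In 6694c2 KOB 5 rose and 18 fell, with a median of −0.55 against 0.07 for all genes (29.2% and 19.4% of all genes rose and fell), and in KOA 7 rose and 4 fell (15.2% and 7.56%). In 6419c5 KOA 4 rose and 11 fell (19.1% and 12.7%), and in KOB 13 rose and 10 fell (28.5% and 14.7%). Serpinh1, which encodes the collagen chaperone HSP47, fell in 3 of the 4 KO lines. It measured 219, 268, 267 and 241 TPM in 6694c2 WT, 124, 137, 215 and 226 in KOA and 57.5, 54.1, 60.1 and 40.4 in KOB, with changes of −0.55 ± 0.20 (adjusted p = 0.0624) and −2.22 ± 0.20 (adjusted p = 7.82e-08). The values in 6419c5 were 357, 330.5 and 473 TPM in WT, 43, 32.5 and 44 for KOA and 147, 83.4 and 91.1 for KOB, with changes of −3.24 ± 0.24 (adjusted p = 2.06e-08) and −1.87 ± 0.24 (adjusted p = 6.24e-06). In 6419c5 KOB the chaperone fell while Col1a1 and Col1a2 rose.

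Fkbp10, an endoplasmic reticulum prolyl isomerase that acts on procollagen, went from 72.2 ± 6.7 TPM in 6694c2 WT to 22 ± 3.36 in KOB (SD, n = 4 each; −1.68 ± 0.10, adjusted p = 4.37e-10) and was called in no other KO line. Pcolce2, an enhancer of procollagen C-propeptide removal, rose in both KO lines of 6419c5, from 33.5 ± 3.03 TPM to 65.9 ± 12.2 and 103 ± 14.3 (SD, n = 3 each; 0.94 ± 0.13 and 1.59 ± 0.13, adjusted p = 1.89e-05 and 4.29e-08), and fell in 6694c2 KOB (−0.66 ± 0.11, adjusted p = 6.64e-05). P3h4, a partner of the collagen lysyl hydroxylation complex, had a KO effect of 0.79 ± 0.07 in 6419c5 (adjusted p = 1.87e-07) and of 0.19 ± 0.06 in 6694c2 (adjusted p = 0.0233). The second was not called with the line as a random effect (adjusted p = 0.754 with an estimated correlation).

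Of 11 collagen receptors and uptake genes, 9 were tested. Averaged over the KO lines, 1 rose and 2 fell in 6694c2 (23.9% and 13.5% of all genes), and 4 rose and 4 fell in 6419c5 (26.5% and 15.0%). The line was also treated as a random effect, a setting added for these genes after their values were seen. In it 0 were called in 6694c2, where 0 had an unadjusted p under 0.05. In 6419c5 1 was called, Ddr2, and 4 had an unadjusted p under 0.05. Of all genes tested, 130 were called in 6694c2 and 589 in 6419c5 in that setting. Itga1 and Itga2, the alpha chains of the integrins that bind collagen IV and collagen I, both rose in 6419c5, by 1.28 ± 0.15 (adjusted p = 2.76e-06) and 0.93 ± 0.16 (adjusted p = 0.000134). Their adjusted p were 0.111 and 0.148 with an estimated correlation. In 6694c2 Itga1 rose (0.44 ± 0.13, adjusted p = 0.0135) and Itga2 fell (−0.54 ± 0.14, adjusted p = 0.00457), with adjusted p of 0.839 and 0.646 with an estimated correlation. Ddr1, the collagen receptor kinase of epithelia, rose in 6419c5 (0.56 ± 0.10, adjusted p = 0.000276, and 0.187 with an estimated correlation). Its mesenchymal counterpart Ddr2 fell there (−3.02 ± 0.33, adjusted p = 1.14e-06), from 8.08, 17.9 and 40.5 TPM in WT to between 0.96 and 1.56 TPM in the KO libraries.

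Of 18 genes of the matrix that collagens associate with, 17 were tested. In 6694c2 KOB 2 rose and 10 fell (29.2% and 19.4% of all genes), and in 6419c5 KOB 9 rose and 3 fell (28.5% and 14.7%). In 6694c2 KOA 2 rose and 2 fell (15.2% and 7.56%), and in 6419c5 KOA 1 rose and 4 fell (19.1% and 12.7%). Fn1, the fibronectin on which collagen fibrils assemble, had a KO effect of −1.22 ± 0.17 in 6694c2 (adjusted p = 2.32e-05) and −1.22 ± 0.20 in 6419c5 (adjusted p = 9.36e-05), with adjusted p of 0.393 and 0.251 with an estimated correlation. Nid1, which links laminin to the type IV network, fell in both KO lines of 6694c2, from 123 ± 3.31 TPM to 48.3 ± 11.8 and 39.4 ± 3.99 (SD, n = 4 each), and was called in neither line of 6419c5. Tnc, encoding tenascin-C, fell from 89.1 ± 15.6 TPM in 6694c2 WT to 4.27 ± 0.823 in KOB (SD, n = 4 each), a log2 change of −4.09 that was called.

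Fibroblasts and pericytes are known to make many of these collagens, and the libraries held their markers at levels that differed between lines. All 20 listed markers were tested, and 0 of the 5 defining markers, Pdgfra, Pdgfrb, Dcn, Lum and Dpt, was at 0 in any library. The 5 defining markers added up to between 12.4 and 20.9 TPM in 6694c2 WT, 5.1 and 26.9 in KOA and 5.22 and 7.79 in KOB. In 6419c5 they added up to between 84 and 285 TPM in WT, 16.5 and 18.4 for KOA and 25.1 and 43.4 for KOB. KOA library 2 of 6694c2 had the lowest sum of its line and WT library 3 of 6419c5 the highest of its own, as for most fibrillar collagens. The whole list of 20 added up to between 244 and 277, 314 and 355, and 279 and 353 TPM in 6694c2 WT, KOA and KOB, and to between 466 and 769, 393 and 435, and 638 and 761 TPM in 6419c5, of which Gsn, also an actin regulator of epithelial cells, was the largest part.

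Of the 20 markers, 6 rose and 0 fell in 6694c2 KOA (15.2% and 7.56% of all genes), and 4 rose and 9 fell in KOB (29.2% and 19.4%). In 6419c5 KOA 1 rose and 12 fell (19.1% and 12.7%), and in KOB 4 rose and 7 fell (28.5% and 14.7%). In 6694c2 KOB and 6419c5 KOA the summed TPM of the fibrillar collagens and that of the 5 defining markers both lay below WT in every library. The marker sum also lay below WT in 6419c5 KOB, and Dcn was its largest part in the WT libraries of 6419c5. In 6419c5 KOB, Col1a1, Col1a2 and Col5a2 rose while Dcn, the fibroblast proteoglycan decorin, fell from 54.9, 123 and 237 TPM in WT to 13.7, 8.47 and 9.99 (−3.36 ± 0.48, adjusted p = 2.36e-05). Pdgfra fell as well there (−1.37 ± 0.34, adjusted p = 0.00373), whereas Pdgfrb (−0.18 ± 0.32, adjusted p = 0.689) and Lum (−0.11 ± 0.30, adjusted p = 0.79) were not called. The marker score used as a covariate may itself hold expression by tumour cells, and the part of fibroblasts in these results was not tested beyond these values. The 12 endothelial markers added up to 95.9 ± 6.14, 138 ± 48 and 49.7 ± 0.525 TPM in 6694c2 WT, KOA and KOB (SD, n = 4 each), and to 35.8 ± 9.94, 32.2 ± 6.79 and 60.2 ± 12.3 TPM in those of 6419c5 (SD, n = 3 each). Of the 10 tested, 1 rose and 0 fell in 6694c2 KOA (15.2% and 7.56% of all genes), and 0 rose and 3 fell in KOB (29.2% and 19.4%). In 6419c5 KOA 0 rose and 1 fell (19.1% and 12.7%), and in KOB 2 rose and 0 fell (28.5% and 14.7%). Between the WT lines 1 was higher and 6 were lower in 6694c2 (21.5% and 32.0%), with a median of −0.75. The highest difference was 5.05, so the larger sum in 6694c2 WT did not hold for most markers. Endothelial cells are another source of basement membrane collagens. The 12 macrophage markers added up to 682 ± 535, 701 ± 341 and 312 ± 128 TPM in 6694c2 WT, KOA and KOB (SD, n = 4 each), with overlap between all lines. In 6419c5 they added up to between 988 and 2559.8 TPM in WT, 333 and 4325 for KOA and 449.7 and 597 for KOB, and in KOB 1 of the 12 rose and 5 fell (28.5% and 14.7% of all genes). In both KO lines of 6419c5, 5 of the 10 epithelial markers rose and 2 fell (19.1% and 12.7% of all genes in KOA, 28.5% and 14.7% in KOB). The part of endothelial cells, macrophages and epithelial cells in the results was not tested.

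**Figure D5:**
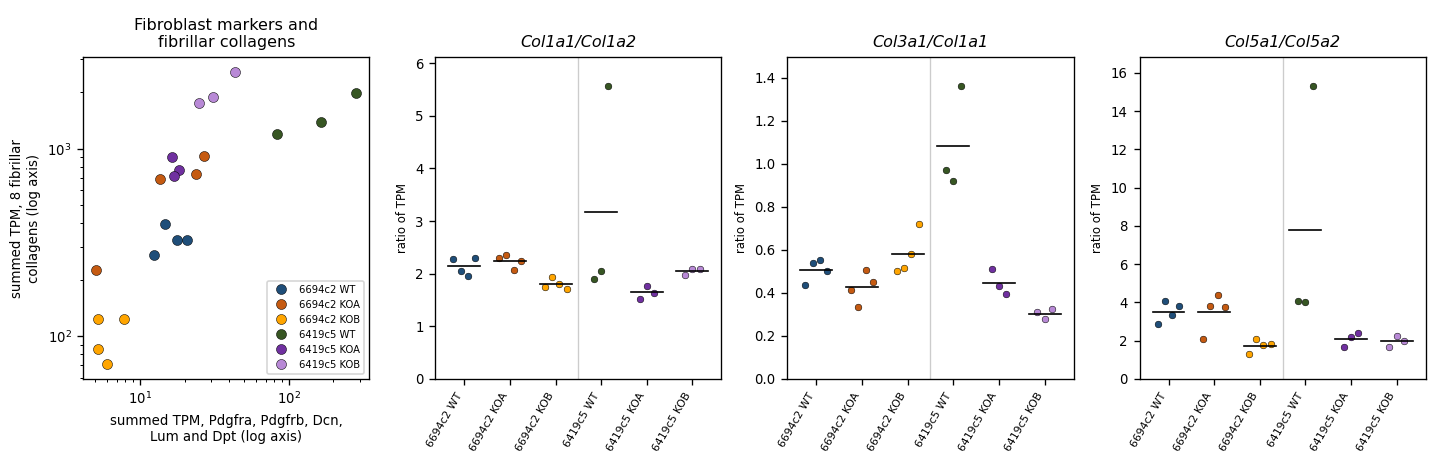
Left, summed TPM of the 8 fibrillar collagens (y axis, log scale) against that of 5 defining fibroblast and pericyte markers (x axis, log scale), 1 point per library; right, ratios of collagen chains by line, with points for libraries and bars for means. The 6419c5 KOB libraries hold between 1759 and 2576 TPM of fibrillar collagen at 25.1 to 43.4 TPM of these 5 markers, while 6419c5 WT holds 1205 to 1974 at 84 to 285. The whole list of 20 markers, not drawn, overlapped, at 638 to 761 TPM in KOB and 466 to 769 in WT. Of the 20, 4 were called higher and 7 lower in KOB (28.5% and 14.7% of all genes). WT library 3 stands apart in the Col1a1 to Col1a2 and Col5a1 to Col5a2 ratios.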

How the data were processed

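RNA was sequenced from sorted tumour cells in 21 libraries of 6 lines, as described in the labels. The deposited values are gene-level TPM made by the authors with Salmon against mm10, per the submitters' processing notes; the Salmon version and the annotation are not given in the sources used here. TPM adds up to the same total in every library and keeps no read number, so depth is unknown, no counting interval can be given, and the spread between libraries is the only measure of precision. Between 12437 and 13316 genes reached 1 TPM per library.

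Tests ran on log2(TPM + 1) in limma 3.58.1 and statmod 1.5.0 (R 4.3.3). Tables and plots used pandas 2.3.3, numpy 2.4.6 and matplotlib 3.10.9 (Python 3.11.15). The filter kept genes that reached 1 TPM in 3 libraries or more, 14337 in all and 27 of them collagens. A limma model with a mean for each of the 6 lines (15 residual and 3.12 prior degrees of freedom, trended variance) gave 10 comparisons: each KO line against WT, the mean of both KO lines against WT in each clone (the KO effect), the difference of these effects, the KO lines of a clone against each other, and WT against WT. Tests were two-sided with Benjamini-Hochberg adjustment over all tested genes, and errors of changes are standard errors. The model was tested on simulated data. Where a replicate library is left out, another 20 remain and the lines share an estimate of the spread.

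The members and all gene lists were chosen with earlier results of these data known. Values in every library are given for the fibrillar, main basement membrane and epithelial collagens and for any other collagen called with a log2 change of at least 1 and a mean of at least 2 TPM in a line; other collagens shown so were added after their values were seen. Of each list of other genes, the 4 with the smallest p in a KO effect among those with at least 2 TPM in a line are named; the defining fibroblast markers, Krt19 and Gsn were named beside them after their values were seen. Positions are from the GENCODE annotation of GRCm38, and promoter windows from RefSeq. Alternatives were other pseudocounts, filters and scalings, each library left out, libraries of high Mir6236 left out, separate fits per clone, a fibroblast marker score as a covariate, and the line as a random effect. The last was extended to the lists of other genes after their values were seen.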

Additional observations from a re-analysis of the deposited data

Results flagged for a closer look

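In 11 of the 27 tested collagens the KO effect differed between the clones by the test of the difference itself (limma, adjusted p under 0.05). Of all genes tested, 28.6% were called in that test. With the line as a random effect none of the 11 was called (lowest adjusted p = 0.392 with an estimated correlation). In that fit 1 collagen had an unadjusted p under 0.05, and 39 of all genes tested were called. On the log2 scale the effect in 6694c2 less that in 6419c5 was 2.01 for Col16a1 and 1.28 for Col11a1. It was −1.25 for Col15a1, −0.95 for Col6a2, −0.78 for Col8a2, −0.72 for Col6a1, −0.66 for Col4a1, −0.64 for Col4a2, −0.51 for Col27a1, −0.46 for Col11a2 and −0.40 for Col20a1. Col11a1 and Col8a2 were near 0 TPM in all lines of 6694c2, at most 0.196 and 0.158 TPM in any library. The call for Col20a1 was kept in 8 of 21 fits that left out a library (adjusted p up to 0.103), and that for Col11a2 in 20 of 21, with −0.38 and an adjusted p of 0.0646 without WT library 1 of 6419c5.

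In 2 of the 81 sets of 4 libraries of a tested collagen, 1 library stood apart from the other 3 by more than Dixon's limit. Both were low values in 6694c2 WT: Col10a1 had its lowest library at 0 TPM against 0.0269 to 0.0285 (0.942 of the range), and Col28a1 its highest at 0.695 TPM against 0.465 to 0.485 (0.912 of the range). Chance flags about 1 in 20 sets.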

How the results depend on the processing

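Counts of collagens called stayed within 1.5 times the reported ones under the other pseudocounts, filters and scalings. Leaving out each library gave 4 to 13 calls for 6694c2 KOA against WT, 18 to 20 for 6694c2 KOB, 8 to 13 for 6419c5 KOA, 8 to 12 for 6419c5 KOB, 11 to 12 for the KO effect in 6694c2, 4 to 11 for that in 6419c5, 9 to 17 for their difference, 19 to 22 for KOA against KOB in 6694c2, 5 to 19 in 6419c5 and 17 to 18 for WT against WT. Without the libraries of high Mir6236 the KO effect in 6419c5 had 4 calls instead of 8, and a separate fit of each clone gave 8 instead of 15 for KOA against KOB in 6419c5. With the line as a random effect (limma, correlation 0.546) the KO effects in 6694c2 and 6419c5 and their difference had 0 calls, and 3, 4 and 1 collagens an unadjusted p under 0.05; among all genes 130, 589 and 39 were called. With the fibroblast and pericyte score as a covariate, 12 collagens were called in 6694c2 KOB (19 without it), 16 in 6419c5 KOB (10), 17 for the difference (11), 6 for KOA against KOB in 6694c2 (21), 3 in 6419c5 (15) and 9 for WT against WT (17).

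In 45 results for single collagens, all under that covariate, a change called with or without it turned its sign. With the covariate the changes in 6694c2 KOA were −0.69 for Col15a1, −0.13 for Col1a1 and −0.93 for Col6a3. In 6419c5 KOA they were 1.37 for Col14a1, 1.22 for Col15a1, 1.84 for Col1a1, 0.08 for Col23a1, 1.22 for Col3a1, 0.47 for Col5a1, 1.33 for Col5a3, 0.82 for Col6a1, 0.87 for Col6a2, 1.34 for Col6a3 and 0.88 for Col8a1, and in 6419c5 KOB 0.51 for Col14a1 and 0.98 for Col5a3. The KO effects in 6419c5 were 1.23 for Col12a1, 0.94 for Col14a1, 0.76 for Col3a1, 0.37 for Col5a1, 1.15 for Col5a3, 0.87 for Col6a3 and 0.63 for Col8a1, and the differences between clones −1.15 for Col3a1, −1.41 for Col5a1, −1.61 for Col6a3 and −1.15 for Col8a1. KOA against KOB gave −0.93 for Col14a1, −0.07 for Col16a1, −0.56 for Col3a1 and −0.39 for Col6a3 in 6694c2, and 0.85 for Col14a1, 0.20 for Col5a1, 0.35 for Col5a3 and 0.10 for Col6a2 in 6419c5. WT against WT gave 1.80 for Col12a1, 0.44 for Col14a1, 0.33 for Col1a1, 0.30 for Col1a2, 0.16 for Col5a1, 0.53 for Col5a2, 2.46 for Col5a3, 0.28 for Col6a1, 0.14 for Col6a2 and 0.72 for Col6a3. The cause was not tested.

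No paired analysis was possible because the numbers in the column names are not tied to the letters of the labels. Median-of-ratios scaling moved the median of all genes by up to −0.11 (6419c5 KOB) and quantile normalization by up to 0.11 (WT against WT). TPM gives shares of the RNA in a library, so a change in a few abundant transcripts moves all others.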
